A study of Drosophila melanogaster with 3 samples.

Results

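Intron peaks in genes under 50 kb are the binding sites of the juvenile hormone receptor Met that lay inside protein-coding genes of ordinary size, away from every promoter and outside every exon. They were taken from the authors' list of 8513 peaks thresholded by the irreproducible discovery rate (IDR) in the dm6 build. The summit of a peak had to be more than 500 bp from every annotated transcription start site (TSS), in no annotated exon, inside at least 1 protein-coding gene, and inside no protein-coding gene of 50 kb or longer. This selected 2351 of the 8513 peaks, or 27.6%. The selection used position only and no measured value.

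The samples were 3 biological replicates of whole white prepupae of Drosophila melanogaster, with males and females pooled, assayed by chromatin immunoprecipitation and sequencing (ChIP-seq). A Met transgene with green fluorescent protein (GFP) at the C-terminus of its product was present in these flies, and chromatin was pulled down with an anti-GFP antibody. All 3 belonged to the same group, with no other genotype, treatment or time point, so the comparisons are between places in the genome and between replicates. Whole animals mix all tissues, and the peak lists do not say in which of them a site was bound. All lists were called against a shared control, and no list from untagged animals was analysed here.

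Met is a transcription factor of the bHLH-PAS family that binds juvenile hormone and, with a partner of the same family, activates target genes through E-box-like sequences. Juvenile hormone keeps larvae from entering metamorphosis, and its best known target is Kr-h1, a zinc finger repressor of the adult programme. In flies many enhancers lie in introns, often in the first intron, where they can act on the promoter of the same gene.

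The summit and the 50 bases to each side are shown for 10 intron peaks, all on the plus strand of dm6 and read from the RefSeq Release 6 assembly. Capitals mark the E-box CACGTG, the C-box CACGCG, the AP-1 site TGANTCA, the GATA factor site AGATAA and the pentamer CACTG, on either strand. The first 5 are among the 20 strongest intron peaks and were chosen for range, from the E-box of Kr-h1 through windows rich in A and T. The last 5 are weaker peaks that hold an E-box, a C-box or a run of the pentamer.
Kr-h1, chr2L:6088450-6088550: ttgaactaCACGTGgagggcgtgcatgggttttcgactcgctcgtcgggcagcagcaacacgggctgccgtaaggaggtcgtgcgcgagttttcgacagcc
CG11050, chr2L:6612659-6612759: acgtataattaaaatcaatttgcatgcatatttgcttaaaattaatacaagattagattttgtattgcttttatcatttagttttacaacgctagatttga
Lk6, chr3R:11760990-11761090: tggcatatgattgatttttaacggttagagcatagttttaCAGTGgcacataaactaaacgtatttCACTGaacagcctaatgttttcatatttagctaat
CG4496, chr2L:7188566-7188666: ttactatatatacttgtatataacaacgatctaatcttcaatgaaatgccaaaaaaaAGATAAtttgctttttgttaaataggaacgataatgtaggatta
Zw, chrX:19668552-19668652: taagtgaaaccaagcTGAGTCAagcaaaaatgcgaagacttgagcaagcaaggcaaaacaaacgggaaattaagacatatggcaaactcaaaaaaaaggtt
Lsd-2, chrX:15075057-15075157: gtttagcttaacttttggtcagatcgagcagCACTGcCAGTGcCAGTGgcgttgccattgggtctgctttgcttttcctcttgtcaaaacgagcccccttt
CG43693, chr3L:11048058-11048158: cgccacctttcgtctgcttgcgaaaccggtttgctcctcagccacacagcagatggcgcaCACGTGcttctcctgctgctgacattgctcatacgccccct
bmm, chr3L:14781313-14781413: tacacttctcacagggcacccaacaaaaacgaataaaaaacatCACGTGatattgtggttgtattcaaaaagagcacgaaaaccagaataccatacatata
Akt, chr3R:16099852-16099952: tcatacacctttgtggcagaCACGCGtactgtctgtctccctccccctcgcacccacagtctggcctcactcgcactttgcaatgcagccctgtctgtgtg
cwo, chr3R:10391035-10391135: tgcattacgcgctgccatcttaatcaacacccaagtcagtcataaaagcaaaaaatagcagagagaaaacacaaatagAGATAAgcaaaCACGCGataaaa
These windows differ most plainly in base composition. Kr-h1 and CG43693 are rich in G and C, whereas CG11050 and CG4496 are mostly A and T. Of the first 5, Lk6 alone holds the pentamer, in both orientations, and Lsd-2 holds it 3 times.

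Introns of genes under 50 kb were bound more densely than introns of longer genes and than intergenic sequence, and less densely than promoters. The sequence that met the rule spanned 24.6 Mb, 18.4% of the 134 Mb of the 6 chromosome arms, and held 95.4 peaks per Mb. When each replicate's own list was taken to its 8513 strongest peaks, replicates 1, 2 and 3 gave 2259, 2326 and 2276 such peaks, or 91.7, 94.4 and 92.4 per Mb. Introns of genes of 50 kb or longer held 56.0, 58.7 and 56.0 per Mb, and intergenic sequence held 50.8, 50.6 and 48.6. Within 500 bp of a TSS the density was 136 ± 4.87 per Mb (SD, n = 3). The groups did not overlap in any of these comparisons. The difference from introns of longer genes was in the same direction in 3 of 3 replicates, with p = 0.25 in an exact 2-sided permutation test that flips the sign of each replicate's difference, the smallest value that 3 replicates allow. The adjusted p was 0.323 over 40 comparisons of this kind, so no comparison here can reach a threshold of 0.05. The depth of the libraries is unknown, since the lists hold no read counts.

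Recurrence between replicates was near that of all IDR peaks. The IDR list was drawn from these same replicates, so recurrence in them is in part built in. Of the 2351 intron peaks, 1748 (74.4%) overlapped a peak in the strongest 8513 of every replicate, near the background of 73.6% over all IDR peaks. A further 381 were found in 2 replicates, 204 in 1 and 18 in none. Replicates 1, 2 and 3 found 87.7%, 89.5% and 86.9% of them. With the IDR list split by signal into 5 equal groups, 99.6% of the intron peaks in the strongest group recurred in all 3 and 19.0% of those in the weakest did. All other IDR peaks gave 98.9% and 15.7% in these groups. The weakest group lies next to the limit of 8513 at which every list ends, so lower recurrence there follows in part from that limit. Against the whole lists of 30000 peaks, 99.0% of the intron peaks recurred in all 3, and 98.3% of all IDR peaks did.

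The authors' signal value, used here only to order peaks within a list, ran from 98.8 to 13961 over the intron peaks, with a median of 199. Their median stood at the 51.3 percentile of the list. In the replicate lists it stood at 51.6 ± 1.34 (SD, n = 3), above the 46.3 ± 0.555 of introns of longer genes in all 3 and within the spread of the 52.8 ± 1.65 of peaks near a TSS. At the edges of the rule, the 105 intron peaks 501 to 600 bp from a TSS had a median percentile of 61.8, and the 247 peaks 401 to 500 bp from one, which were left out, had 52.8. The 167 intron peaks in genes of 45000 to 50000 bp had 54.3, and the 108 in introns of genes of 50000 to 55000 bp, left out, had 51.0.

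The strongest site of the whole IDR list was an intron peak. It lay in the first intron of Kr-h1, which is 9254 bp long, and its E-box is the one capitalised in the sequence shown above. The peak ranked 1 in every replicate, with signals of 3996, 5210 and 4804. Its signal in the IDR list was 13961, and that of the next intron peak 4079. CG11050, known by its annotation number only, held the latter, at rank 9 of the IDR list and ranks 8, 9 and 10 in replicates 1, 2 and 3. Its summit fell in a second intron of only 140 bp. The kinase gene Lk6, whose product phosphorylates the translation initiation factor eIF4E, followed at rank 11, with ranks 10, 11 and 12. Its summit lay in the first intron, at position -961 relative to the nearest TSS, where a minus sign means upstream. Kr-h1 held 3 intron peaks in the IDR list, against 2, 2 and 4 in the replicates.

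The rest of the 20 strongest lay in genes of varied function. The Ras pathway kinase gene Raf held the peak at rank 43, which ranked 69, 37 and 38 in the replicates. Zw, which encodes glucose-6-phosphate dehydrogenase, the entry enzyme of the pentose phosphate pathway, held rank 47, with ranks 75, 44 and 39 in the replicates. In both genes replicate 1 was the low one, as it was in several others of the 20. Trl, the gene of GAGA factor, held rank 50, and the ecdysone-induced nuclear receptor gene Eip78C held rank 58. LPCAT, for a lysophospholipid acyltransferase, was at rank 31, norpA, for the phospholipase C of phototransduction, at rank 53, and for, which encodes a cGMP-dependent protein kinase, at rank 62. The epithelial polarity gene crb was at rank 65, and the myosin heavy chain-like gene Mhcl at rank 73. The other hosts were CG32772, CG32486, CG4496, CG12769, CG9663, CG3726, babos, and the overlapping pair Hyls1 and chif. All 20 were among the strongest 8513 of every replicate, and none ranked below 88 in any of them. The IDR list holds the strongest pooled peaks of these same replicates, so such ranks follow in part from how it was made.

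**Figure D1:**
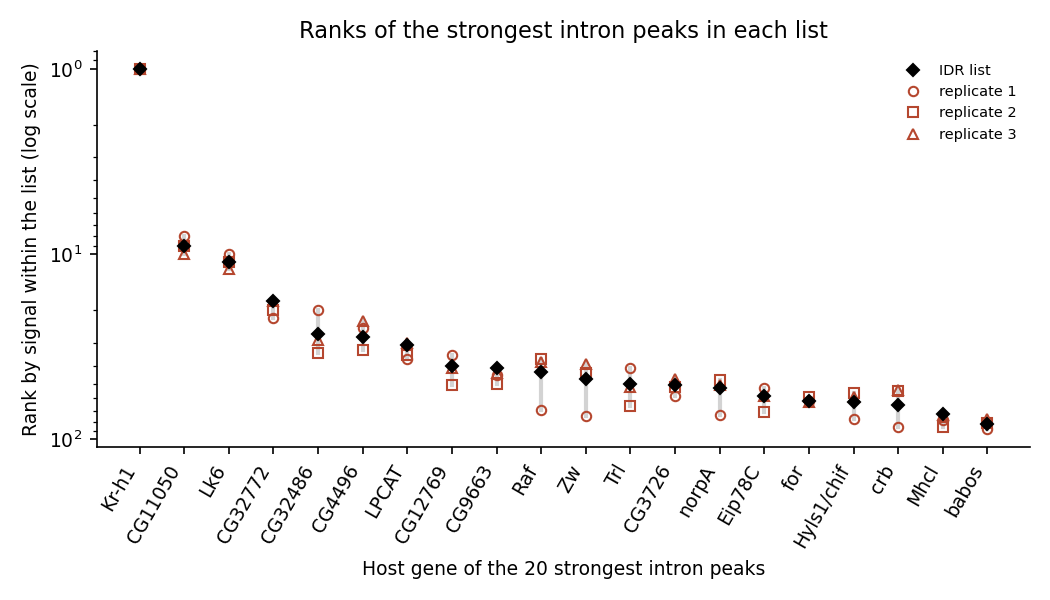
Rank of the 20 strongest intron peaks in the IDR list (diamonds) and in each replicate (open symbols), on a log axis with rank 1 at the top. A replicate's peak was matched when its summit lay within 100 bp. Kr-h1 is at rank 1 in all lists. Replicate 1 ranks lowest in Raf and Zw, and also in norpA, crb and the pair Hyls1 and chif, among others.

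First introns held most of the intron peaks, and more than their share of the sequence. Of the 2351 summits, 1695 (72.1%) fell in sequence that is the first intron of at least 1 transcript, which made up 52.6% of the bases that met the rule. First introns held 128, 131 and 129 peaks per Mb in replicates 1, 2 and 3, and later introns 51.1, 54.1 and 51.5. All first-intron values lay above all later-intron values. The ratio was 2.33 in the IDR list and 2.48 ± 0.0516 in the replicates (SD, n = 3), higher in 3 of 3, with an exact sign-flip p of 0.25 (adjusted 0.323). Base composition of the sequence was alike, at 40.0% G+C in first and 39.0% in later introns. Median rank was also higher in first introns, at the 52.96 percentile of the IDR list against 46.6.

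The ratio of first to later introns was largest near a TSS and was above 1 in every distance band. At 501 to 1000 bp from the nearest TSS, the IDR list held 166 peaks per Mb in first introns and 48.9 in later ones, a ratio of 3.39. At 1001 to 2000 bp the ratio was 2.34, at 2001 to 5000 bp 2.19, and at 5001 to 10000 bp 1.97. Beyond 10000 bp it was 1.62, from 87.7 and 54.0 peaks per Mb. In the replicates the nearest band gave 3.36 ± 0.376 and the farthest 1.57 ± 0.0281 (SD, n = 3). In the IDR list the density fell with distance in first introns and stayed between 48.9 and 60.9 per Mb in later ones. First introns were also the denser among genes that had both kinds of sequence. Summed over the 1075 genes with at least 1 kb of each kind, first introns held 116 peaks per Mb and later introns 56.6. Of the 504 such genes with a peak, the first intron was the denser in 343 and the later ones in 161. In a gene with 1 peak the denser part is where that peak fell, so this count depends also on the lengths. Counting only sequence that is first in every transcript left 1182 peaks (50.3%) on 36.5% of the bases, at 1.76 times the density of the rest.

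**Figure D2:**
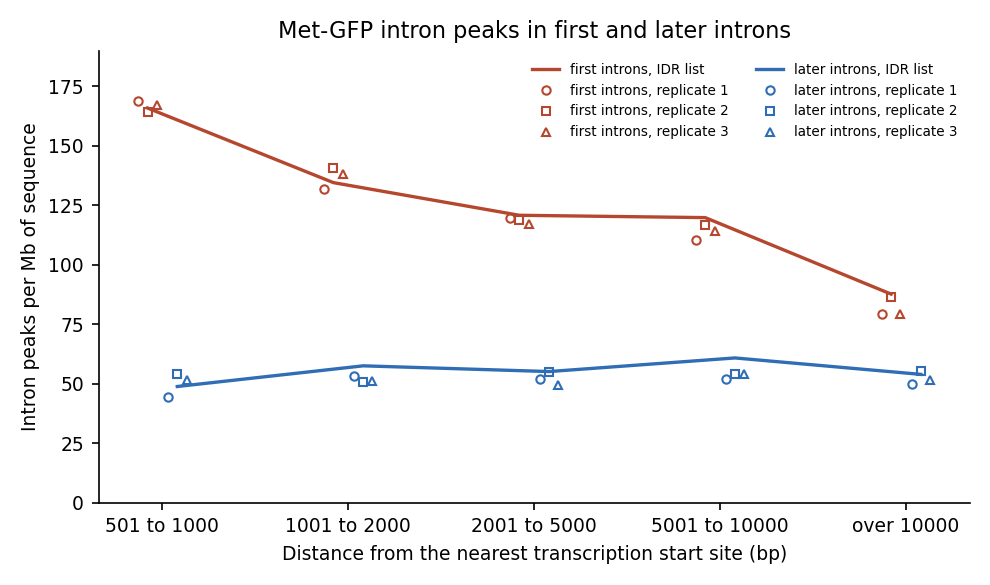
Intron peaks per Mb of rule-meeting sequence against distance from the nearest TSS, for first introns (red) and later introns (blue). Lines are the IDR list and open symbols the 3 replicates. The first-intron values fall from 166 to 87.7 per Mb, and the later-intron line stays between 48.9 and 60.9.

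Summits lay well inside introns. The median distance was 2424 bp to the nearest TSS, with quartiles of 1142.5 and 5052 bp and a highest value of 26406 bp. To the nearest exon it was 1168 bp. The 100 bp next to an exon made up 14.3% of the bases that met the rule and held 72 summits, or 3.06%, and 2.77% ± 0.189 in the replicates (SD, n = 3). Bases more than 1000 bp from an exon made up 46.7% and held 55.6%. Peaks were 110 to 1257 bp wide, with a median of 440 bp, so a summit in a short intron such as that of CG11050 stands in a peak that also covers exons.

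The arms were not equal. The X held 512 intron peaks at 121 per Mb, and 114, 123 and 121 in the replicates, above the autosomal arms 2L, 2R, 3L and 3R, which held 84.5, 86.2, 105 and 88.7. Replicate values for these autosomal arms were at most 102 per Mb. Chromosome 4 held 2 intron peaks, or 8.15 per Mb, and 1, 3 and 1 in the replicates.

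Summits were poor in G and C within richer surroundings. The window around the summit, 50 bp to each side, averaged 32.6% G+C and equal windows centred 500 bp to either side averaged 42.7%, and 83.2% of summits were below their own flanks. Windows of this width over all the rule-meeting sequence averaged 39.9%, so the flanks were richer than these introns as a whole. The flanks were not limited to introns. Replicates gave 33.0% ± 0.469 at the summit and 42.7% ± 0.114 in the flanks (SD, n = 3). Summits in introns of longer genes differed from these by a mean of 0.0406 percentage points over the replicates, less than the spread between replicates, whereas summits near a TSS were richer, at 35.6% ± 0.535. The dip was deeper at strong sites, with 30.3% at the summit in the strongest of the 5 groups by signal and 34.6% in the weakest. The Kr-h1 summit was the exception among the strongest 20, at 61.4% with flanks of 34.7%, and the other 19 were at most 38.6%. Over all, 83 of the intron peaks (3.53%) had more than 50% G+C.

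**Figure D3:**
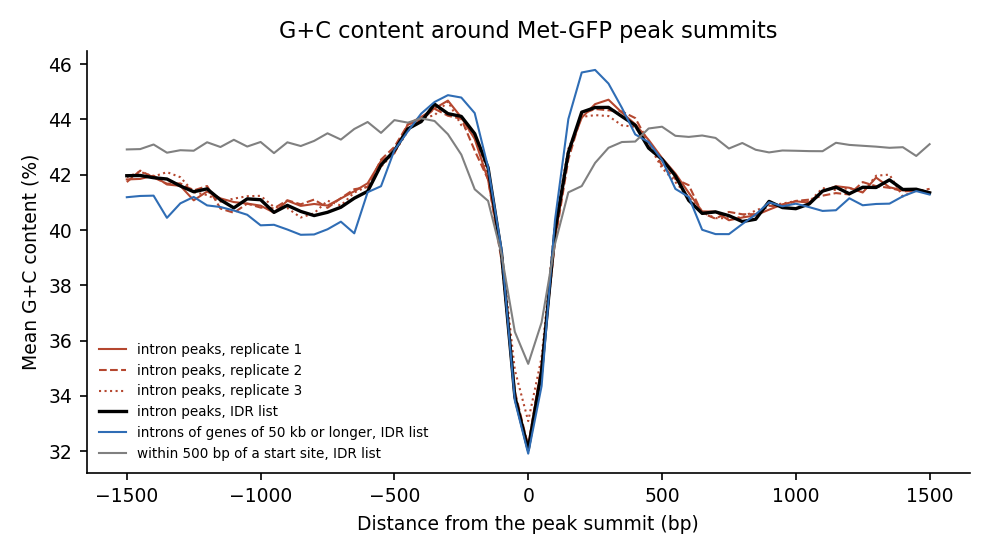
Mean G+C content in windows reaching 25 bp to each side, narrower than those of the values in the text, by distance from the summit, for the intron peaks in the IDR list (black) and the 3 replicates (red), for peaks in introns of genes of 50 kb or longer (blue) and for peaks within 500 bp of a TSS (grey). At the summit the intron peaks of the IDR list dip to 32.0%, between shoulders of higher G+C content, and peaks near a TSS to 35.2%.

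The sequences that bHLH-PAS proteins are known to bind were rare at the summits. The E-box CACGTG, searched on both strands within 50 bp of the summit, was present in 22 intron peaks (0.936%), against a background of 0.787% over all IDR peaks. The C-box CACGCG was present in 29 (1.23%), against 1.42%. Whether these shares were high or low turned on the comparison. Windows 500 bp away held the E-box in 1.30% and the C-box in 2.25%, ratios of 0.721 and 0.547. Of 224689 windows tiling all sequence that met the rule, weighted to the G+C content of the summits, 0.691% held the E-box and 0.829% the C-box, ratios of 1.35 and 1.49. Replicates gave weighted ratios of 1.13 ± 0.0733 and 1.19 ± 0.0756 (SD, n = 3). In genes under 25 kb alone the E-box ratio to the flanks was 1.09, on the other side of 1. The core GCGTG, which is contained in the C-box on the other strand, was in 147 peaks, at 0.459 times the flanks and 1.06 times the weighted windows.

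Peaks with a C-box were mostly among the weaker ones, and those with an E-box leaned that way less clearly. The median stood at the 42.7 percentile of the IDR list for the 22 peaks with an E-box and at 34.1 for the 29 with a C-box. For both together it stood at 34.5, and for the other intron peaks at 51.6. With the intron peaks themselves split by rank into 5 groups, 2 of the 471 strongest had an E-box, those of Kr-h1 and ana, a gene that controls neuroblast proliferation, and 0 had a C-box. Of the 470 weakest, 5 held an E-box and 9 held a C-box. The groups between, from strong to weak, held 3, 7 and 5 E-boxes, without a steady trend, and 4, 7 and 9 C-boxes. The 51 peaks with either one averaged 44.9% G+C at the summit, and the other 2300 averaged 32.4%. They recurred in all 3 replicates in 30 of 51 cases (58.8%), against 74.7% of the others. After Kr-h1 and ana, the strongest with a C-box lay in CG14434, CG31368 and the overlapping pair fray and CG7694, at ranks 2016, 2273 and 2277, and the strongest with an E-box in crp, CG43693 and CG7991, at ranks 2469, 2846 and 2966. crp encodes a bHLH protein.

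Other motifs moved with base composition to different degrees. The AP-1 site TGANTCA was present in 84 peaks (3.57%), against 2.7% of all IDR peaks, 2.38% of the flanks and 2.80% of the weighted windows. Its ratios of 1.50 and 1.27 were 1.44 ± 0.0503 and 1.20 ± 0.0475 in the replicates (SD, n = 3). The GATA factor site AGATAA was in 221 (9.40%), against 8.11% of all IDR peaks and 5.55% of the flanks. Against the weighted windows its ratio was 1.07. GAGAG, the element bound by GAGA factor, was in 220 peaks, at 0.615 times the flanks and 1.21 times the weighted windows. Of the other E-boxes, CAGCTG was in 63 peaks, at 1.26 times the weighted windows. CACCTG was in 37, at 0.903 times, and CATATG in 90, at 1.01 times. The nuclear receptor core site AGGTCA was in 49, at 1.02 times, and the repeat CACACACA in 35, at 1.02 times. The Zelda site CAGGTAG was in 7 peaks, the DRE TATCGATA in 5 and promoter motif 1, GGTCACACT, in 4.

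A pentamer chosen after the counts were seen was more frequent than any of these. Of the 1348 sequences of 6 bases present in at least 2% of the weighted windows, counting both strands together, those most over-represented at the summits against the weighted windows were ACAGTG, at 2.08 times, and CAGTGC, at 2.03 times. Of the 8 highest by the mean of the replicates, 6 held the pentamer CACTG on one strand or the other. It was present in 449 summits (19.1%), against 16.2% of the flanks and 10.9% of the weighted windows. The weighted ratio was 1.88, 1.74 and 1.68 in replicates 1, 2 and 3. Summits near a TSS held it in 20.2%, introns of longer genes in 15.7% and intergenic summits in 17.5%, so its share lay between those of the other places. It is a description of the letters and was given no test.

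**Figure D4:**
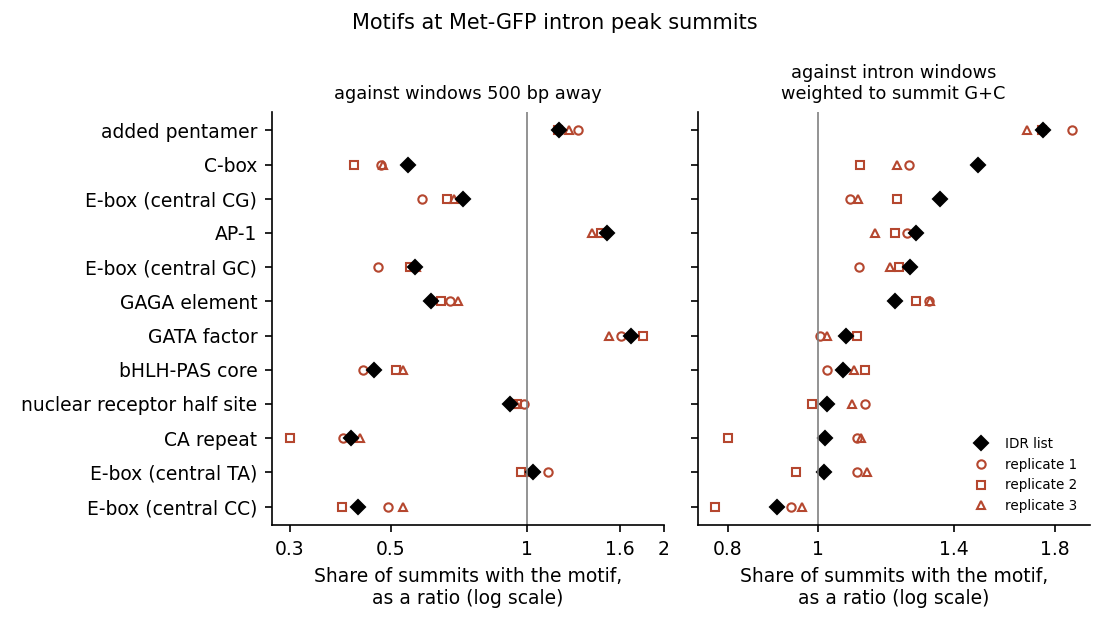
Share of intron peak summits with each motif, as a ratio to windows 500 bp away (left) and to intron windows weighted to the G+C content of the summits (right), on log axes, for motifs present in at least 20 peaks. Diamonds are the IDR list and open symbols the replicates. The E-box CACGTG (central CG) and the C-box lie left of 1 in the first panel and right of 1 in the second.

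The intron peaks fell in 1076 host genes. These were 12.5% of the 8584 coding genes under 50 kb that had any sequence meeting the rule, and the share rose with how much of it a gene had, from 0.498% of genes with up to 500 bp to 58.0% of genes with more than 10000 bp. A single peak was found in 545 hosts, 2 in 210 and 3 or 4 in 184, and 137 hosts with 5 or more held 863 of the peaks. A summit lay in 1 gene in 2247 cases, in 2 overlapping genes in 96 and in 3 in 8, and its target gene is not known from the lists.

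The genes with the most intron peaks were tara, Mnt and E2f1. tara, which encodes a SERTA domain protein linked to the cell cycle and to sleep, held 19, and 18 in each replicate, and all 19 were in first introns. Mnt, the gene of a bHLH protein that opposes Myc, held 17, and 15, 18 and 18 in the replicates. E2f1, the cell cycle transcription factor gene, held 14, and 14, 13 and 11. The growth repressor gene brat held 12, and RhoGAP19D 12, where the replicates spread from 13 to 7. Raf and siz, which encodes an exchange factor for Arf GTPases, held 11 each. simj, for a subunit of the NuRD chromatin complex, tna and the integrin gene mew held 10 each, as did tou, Shrm and atos, whose strongest peaks had lower ranks. Per length, Mnt had 0.725 peaks per kb of its rule-meeting sequence and mew 0.281. None of the 11 peaks of Raf was in a first intron. Peaks within such a gene were of very different strength, from rank 627 to rank 8412 in tara, and 36 of the 2351 peaks share one interval with another that has a different summit. In all, 282 overlapped another IDR peak.

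**Figure D5:**
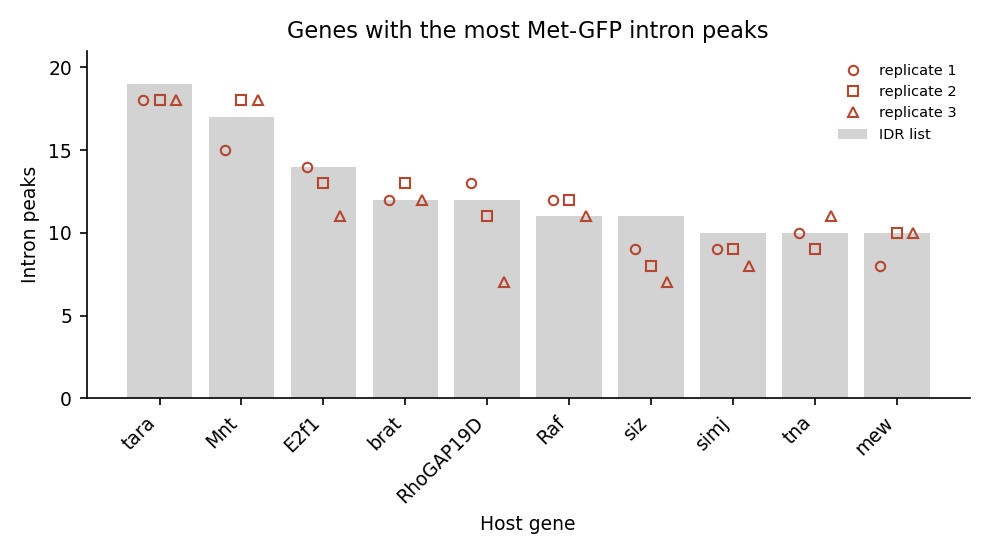
Number of intron peaks in 10 of the 13 host genes with 10 or more, in the IDR list (bars) and in each replicate (open symbols). tara has 19 in the IDR list and 18 in every replicate, and RhoGAP19D spreads from 7 to 13 over the replicates.

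Gene lists were counted over their genes under 50 kb with sequence that met the rule, and are read beside the 12.5% of all such genes. That share was 42.7% for genes with 5001 to 10000 bp of such sequence and 58.0% for those with more. Median length per gene was 6031 bp for the Hippo list, 9149 bp for disc patterning and 13880.5 bp for the Ras pathway. For cytoplasmic ribosomal proteins it was 130 bp. Shares of lists were not matched for length. Host genes were rich in such sequence, with a median of 8400.5 bp against 411 bp over all. Of the juvenile hormone response genes 8 of the 15 listed had sequence meeting the rule, and Kr-h1 alone of these held a peak. That is 12.5%, the share of all genes. Kr-h1 had 8090 bp of the list's 10.6 kb of such sequence, and the median per gene was 166.5 bp. With so little sequence, the lack of a peak in the others says little. Among receptor and cofactor genes 3 of 10 held a peak. Hsp83, for the Hsp90 chaperone that assists Met, had 1 at rank 261, with ranks 297, 265 and 222 in the replicates. gce, the gene of the related juvenile hormone receptor, had 3, and 3 in every replicate, the strongest at rank 4059. Chd64, for a calponin-like protein, had 1 at rank 5616.

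Ecdysone is the steroid that drives metamorphosis, and 9 of 15 genes of its response held intron peaks, 25 in all, including Kr-h1 and its 3 peaks, which are also those of the juvenile hormone response list. They came from a median of 8090 bp of rule-meeting sequence per gene. Hr3, a nuclear receptor gene, had 7 in the IDR list and 7, 6 and 7 in the replicates. Its strongest summit, at rank 826, also lay in the overlapping genes CG12912 and CG46321. E23, for an ABC transporter, had 5 in every list. Eip78C had 4, and 4, 5 and 4 in the replicates. ImpL2, for a secreted binder of insulin-like peptides, had 2 in every list, the stronger at rank 260. Hr38, ImpE1, Hr39 and crol had 1 each, at ranks 1847, 1921, 5569 and 5706.

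The density of intron peaks over the genes of a list was above the 95.4 per Mb of all genes in 12 of 19 lists. It was 290 per Mb for the EGF receptor and Ras pathway, 287 for the Hippo pathway and 301 for chromatin factors and transcription cofactors. The replicates gave 299 ± 7.62, 283 ± 20.6 and 297 ± 29.0 (SD, n = 3). In the Ras pathway 9 of 12 genes held a peak, led by Raf, aop, which encodes an ETS repressor, and Egfr, with 11, 7 and 8. In the Hippo pathway 9 of 16 did, led by ex, an upstream regulator of the pathway, at rank 162, Diap1, the caspase inhibitor, at rank 368, and the cyclin gene CycE at rank 384. Among chromatin genes 8 of 23 did, with Trl at rank 50, the nucleosome remodeller Mi-2 at rank 94 and the Polycomb group gene Psc at rank 150. The summit at rank 94 also lay in the overlapping gene Su(Tpl). The other signalling lists were lower, at 170 for the Notch pathway and 192 for insulin and TOR, and the ecdysone, clock and cell death lists had 172, 219 and 168. The cell death value came from the 5 peaks of Diap1 alone, which are also counted in the Hippo list. The juvenile hormone response list had 282, from the 3 peaks of Kr-h1. No test was made of these lists.

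Metabolic and clock genes also held intron peaks. Of 12 fat body and lipid genes 8 did in the IDR list (66.7%), at 261 per Mb. Replicates gave 52.8% ± 4.81 of the genes and 232 ± 12.5 per Mb (SD, n = 3). Median rule-meeting length per gene was 2506 bp, and 23.6% of all genes with 2001 to 5000 bp held a peak. The strongest were in SREBP, the regulator of lipid synthesis, at rank 790, and bmm, the triglyceride lipase gene, at rank 1531. The perilipin gene Lsd-2 followed at rank 1663. bmm had 4, among them the E-box peak shown above, which overlapped a peak among the strongest 8513 of every replicate, with a summit within 100 bp in replicate 3. FASN1 had 1, at rank 8156, and none within the strongest 8513 of any replicate. ACC had 1, at rank 7999, and 0, 1 and 0 in the replicates. Of 17 insulin and TOR genes 6 did, led by Lk6, the insulin receptor gene InR and the kinase gene Akt, and the Akt summit holds the C-box shown above. Of 13 clock genes 5 did, among them vri, for a bZIP repressor of the clock, with 7, and the kinase genes sgg and dco with 5 and 2, and C-boxes lay in peaks of vri, of cwo, for a bHLH repressor of the clock, and of sgg, at ranks 4071, 4904 and 7301.

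Patterning genes were mixed. Notch pathway genes held peaks in 5 of 11, led by the ubiquitin ligase gene neur at rank 134, the receptor gene N at rank 528 and the ligand gene Ser at rank 2279. Imaginal disc patterning genes did in 10 of 19, led by the BMP ligand gene dpp, the Hedgehog receptor gene ptc and Mad, which encodes a transducer of the BMP signal. Their density was 87.8 per Mb, below that of all genes. The bHLH-PAS genes did in 4 of 8, which were trh, gce, ss and sim. Cell death genes did in 1 of 9, which was Diap1, and autophagy genes in 1 of 11, which was the kinase gene Atg1. The strongest summit in Atg1 also lay in the overlapping gene CG42709.

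Neuron and muscle lists had low densities. Their shares of genes with a peak were not below the 12.5% of all genes, but their genes had more sequence. Median rule-meeting lengths were 7746 and 899 bp, against 411 bp over all. Of all genes with 5001 to 10000 bp 42.7% held a peak, and of those with 501 to 2000 bp 7.49%. Against genes of like median length, the neuron share was therefore lower and the muscle share higher. Neuron marker genes had a peak in 2 of 14 (14.3%), with 3 peaks in 140 kb. That was 21.4 per Mb, with the same density in every replicate. The peaks were 2 in fne and 1 in elav, both for RNA-binding proteins, and the elav summit also lay in the overlapping gene arg. Muscle genes had a peak in 3 of 16 (18.8%), which were Mef2, Tm1 and how, 6 in all at 52.6 per Mb, and 55.5 ± 20.2 in the replicates (SD, n = 3). Cuticle protein, odorant receptor and cytoplasmic ribosomal protein genes had 0, but these lists offered only 5.39, 6.14 and 2.78 kb of sequence that met the rule, a length that at the density of all genes would hold less than 1 peak in each list.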

How the data were processed

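Met-GFP ChIP-seq peak lists of 3 replicates of whole white prepupae were used. Per the file headers and labels, the authors deposited a relaxed list of 30000 peaks per replicate, made against a control file, and an IDR-thresholded list. Neither aligner nor peak caller is given in the sources used here. The deposited signal value of each peak is the authors' own and served only to rank peaks within a list. Library depth is unknown. By chromosome, summit and signal, the 8513 IDR peaks were checked to be the strongest 8513 pooled peaks.

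Sequence was read from RefSeq Release 6. Gene models were those of Ensembl release 115 (BDGP6.54), in 1-based dm6 coordinates. All annotated TSSs and exons counted, those of pseudogenes and transposable elements included. From every replicate list the strongest 8513 peaks on any sequence were taken, and those on the 6 chromosome arms were kept. Overlap meant at least 1 bp. Motifs were sought within 50 bp of summits, and background windows of the same width were weighted in bins of 3 points of G+C. A first intron was one that is first in at least 1 transcript. Replicate differences were tested by exact sign-flip permutation with Benjamini-Hochberg adjustment. Scripts ran in Python 3.11.15 with numpy 2.4.6 and pandas 2.3.3 and were tested on simulated data.

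The members, the gene lists and the motifs were chosen with earlier results of these data known. Genes named are the hosts of the 20 strongest intron peaks, the 10 with the most peaks (ties by the strongest peak), all hosts of the juvenile hormone and ecdysone lists, up to 3 of every other list by strongest peak, and hosts of the 8 strongest peaks with an E-box or C-box. Others named were chosen after their values were seen. Alternatives were another TSS distance, gene length bound, list depth, annotation, overlap and window.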

Additional observations from a re-analysis of the deposited data

How the results depend on the processing

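No paired analysis between groups was possible because the samples form 1 group, and differences between places in the genome were taken within each replicate. The directions of the results held under most alternatives, and their sizes moved. The stronger part of the list gave 28.4% of peaks as intron peaks, a density of 49.0 per Mb (from fewer peaks), recurrence of 99.1%, a median percentile of 48.3, 74.6% in first introns, 31.4% G+C, ratios to the flanks of 0.625 (E-box) and 0.296 (C-box), and 8.49% of genes with a peak. A TSS distance of 1000 bp gave 22.0%, 89.6 per Mb, a percentile of 48.4, 68.1% in first introns, an ratio of 0.844 for the E-box and 13.0% of genes. A gene length bound of 25 kb gave 15.8%, 101.3 per Mb, recurrence of 76.3%, a percentile of 53.8, 77.0% in first introns, a C-box ratio of 0.656, 9.80% of genes and an E-box ratio of 1.09, which reversed, and the cause was not tested. A bound of 100 kb gave 37.97%, 91.0 per Mb, 67.4% in first introns and 13.8% of genes. Leaving out pseudogenes and transposable elements gave 88.8 per Mb. The means of the 3 replicate lists were 26.9%, 92.8 per Mb, 73.3% in first introns, and ratios of 0.648 (E-box) and 0.457 (C-box). Leaving out 1 replicate gave 26.6% to 27.1%, 92.1 to 93.4 per Mb, percentiles of 51.0 to 52.3, 73.2% to 73.6% in first introns, 32.8% to 33.2% G+C, E-box ratios of 0.626 to 0.679, C-box ratios of 0.445 to 0.478, 12.5% to 12.6% of genes, and recurrence in both others of 79.1% to 80.5%. A reciprocal overlap of 50% gave recurrence of 54.0%, and whole lists 99.0%. Windows of 100 bp to each side gave a C-box ratio of 0.596. Weighting the background to the G+C content of the summits reversed both ratios, to 1.35 (E-box) and 1.49 (C-box). Sequence first in every transcript held 50.3% of the intron peaks. With the 500 strongest peaks of the IDR list left out, an alternative chosen after seeing the data, the summits had 32.8% G+C. Without read counts, depth limits what the absence of a weak peak in a replicate can show.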
